A study of Oryctolagus cuniculus with 4 samples.

Results

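IMPACT, NNAT, PEG3, MEST, SGCE, RTL1 and SFMBT2 are 7 genes that, in at least some other mammals, are imprinted and expressed from the copy inherited from the father. They were chosen by gene symbol among 10355 named genes with a tested probe on a rabbit array, and they are read by 17 of the 43595 probes tested. IMPACT has 3 probes, MEST and SFMBT2 have 5 each, and NNAT, PEG3, SGCE and RTL1 have 1 each. All 17 probes passed into the test, since no filter on low values was applied. Which parental copy was read was not measured, so the name of the group comes from other species and not from these data.

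The microarray experiment compared 4 pools of parthenote blastocysts with 4 pools of in vivo fertilised blastocysts from New Zealand White rabbits, all at an age of 6 days. Parthenotes came from ovulated oocytes activated by electrical pulses and then exposed to cycloheximide and 6-DMAP, and they developed in the oviduct and uterus of recipient does. The fertilised embryos were untreated and came from does inseminated with pooled sperm, and ovulation was induced hormonally in the does of either group. Each pool held 7 embryos, so differences among embryos of a pool are not seen, and labelled RNA amplified from 150 ng of each was hybridised in pairs, 1 parthenote pool in Cy3 with 1 fertilised pool in Cy5 on each array. No array had the dyes the other way round (0 of 4), and all lay on 1 slide, so an effect of the dye and a difference between the groups cannot be told apart for any probe.

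Imprinting marks a gene in the egg or the sperm, usually by DNA methylation at a control region, so that after fertilisation only the copy from 1 parent is read. A parthenote has maternal copies only, and at many paternally expressed genes, though not at all, the maternal copy carries the silencing mark. Which copy of each of the 7 genes is marked in rabbits was not measured. The 7 genes lie in different imprinted domains of other mammals and have unrelated products. IMPACT binds the ribosome-associated activator of the amino acid sensor kinase GCN2, NNAT is a small membrane protein of the endoplasmic reticulum, PEG3 is a zinc finger protein, MEST belongs to the alpha/beta hydrolases, SGCE is a sarcoglycan of the cell membrane, RTL1 is derived from a retrotransposon and serves the placenta, and SFMBT2 is a polycomb-group protein needed by trophoblast.

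On each array, 26 to 48 spots were marked by the scanner software and set to missing, and 0 of them belonged to a probe of the 7 genes. Signal was called well above background for 25805 to 26339 parthenote spots and 27508 to 27835 fertilised spots an array, and with 4 arrays the precision is set by their small number. Some markers fixed for other cell types moved with the groups: 5 of 8 genes of motile ciliated cells and 3 of 4 genes of the secretory epithelium of oviduct and uterus were higher in parthenotes, and 0 were lower. Over all named genes, 11.6% were higher and 12.3% lower at the same threshold (adjusted p under 0.05 in limma). Summed over the list, the ciliated markers ran from 720 to 1592 intensity units in the parthenote pools and from 244 to 341 in the fertilised pools. The secretory markers ran from 8768 to 33228 and from 4556 to 8229, with OVGP1, the oviduct glycoprotein, at a log2 ratio of 3.87 ± 0.29 (SD, n = 4). WFDC2, the secretory marker that was not called, was at 0.01 ± 1.04 (SD, n = 4). It made up a large part of the secretory sums, with means of 4941 units in parthenote and 4892 in fertilised pools. FOXJ1, which defines motile ciliated cells, was not well above background on any array. Of the markers of the blastocyst itself, 3 of 3 for the epiblast and 5 of 6 for the trophectoderm were well above background in either channel on all 4 arrays. These included POU5F1 and GATA3, while ELF5 of the trophectoderm was not well above background on any array. Of 4 primitive endoderm markers, 2 were well above background in all parthenote pools and 3 in all fertilised pools. The part of these other cells in the results below was not tested. In pooled embryos, fewer cells of a type and less RNA per cell cannot be told apart.

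Taken by their brightest probe, 4 of the 7 genes were lower in parthenotes at an adjusted p under 0.05 in limma, namely IMPACT, NNAT, PEG3 and RTL1, and 0 were higher. The same call was made for 12.3% of the 10355 genes in the lower direction and for 11.6% in the higher direction. Of the 4 genes called, PEG3 was not well above background in any pool, and its parthenote values were floors set by the software. Counted by probe, 7 of 17 were lower (41.2%), beside 11.1% of all probes tested that were lower and 9.53% that were higher, and 10 of 17 had all 4 parthenote pools below all 4 fertilised pools (58.8%), beside 11.8% of all probes. The probes so separated include that of PEG3 and the MEST probes A_04_P045402 and A_04_P045403, whose parthenote values were floors on all 4 arrays. Their fertilised signals were well above background on 1 array at most, so for these probes the separation does not compare measured levels. The probe counts are not counts of independent measurements, since the 10 probes of MEST and SFMBT2 overlap. Over all probes, 46.2% of the calls were in the higher direction, and this share was 65% when the ratio was taken from the processed intensities. The mean log2 ratio of parthenote over fertilised was below 0 for all 17 probes and ran from -3.50 to -0.29, while the median over all probes tested was 0.

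The plot of intensities shows how differently the 7 genes are placed. IMPACT and SFMBT2 gave signal in either group, NNAT only in the fertilised pools, SGCE and RTL1 in all fertilised and in 1 parthenote pool, and PEG3 in no pool. MEST had signal in a single pool of each group on its brightest probe.

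**Figure D1:**
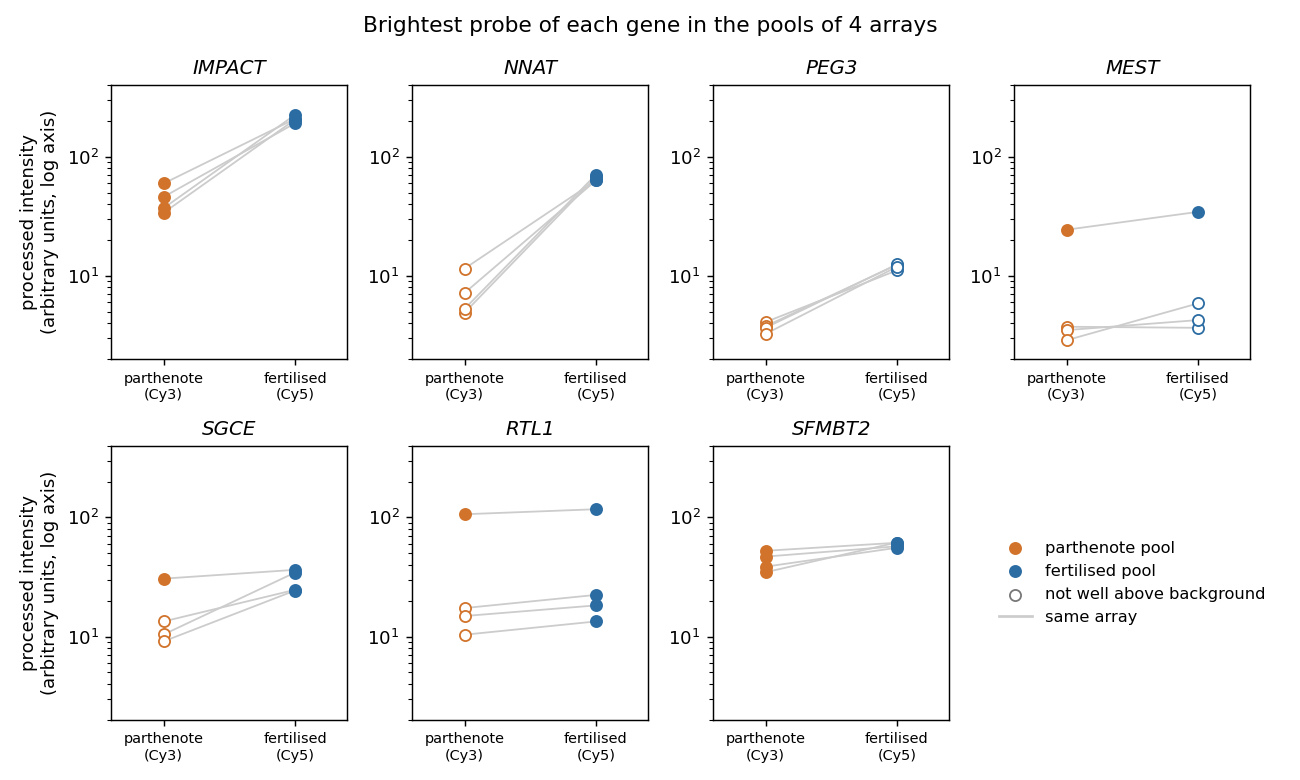
Processed intensity (arbitrary units, log axis) of the brightest probe of each gene in the 4 parthenote pools (orange, Cy3) and the 4 fertilised pools (blue, Cy5). Grey lines join the pools of an array and open symbols were not well above background. The IMPACT pools of the groups lie apart (33.8 to 59.6 against 190 to 224), whereas the RTL1 pools of the groups overlap.

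IMPACT was lower in parthenotes on all of its 3 probes, by 4.37-fold to 11.3-fold. Its probes are shown because a pair of them are neighbours in the transcript and give the same answer from letters they do not share. The probe A_04_P004042 covers bases 845 to 904 of the transcript and the probe A_04_P004041 bases 905 to 964. Both are written 5′ to 3′ from the array files, wholly in lower case because no part is singled out.
A_04_P004042: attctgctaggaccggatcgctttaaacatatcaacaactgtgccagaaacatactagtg
A_04_P004041: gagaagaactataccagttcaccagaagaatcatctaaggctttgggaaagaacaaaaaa
The array files place them on the plus strand at chr9:65597726-65597785 and chr9:65597786-65598798 of a genome build that they do not name. The second span is 1013 positions long for 60 bases, so those letters lie in separate pieces of the genome. The probe A_04_P000906 covers bases 3819 to 3878, and starts 2974 bases after the first, at chr9:65601653-65601712. Exon and UTR boundaries of this build were not used here.

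On the brightest probe, A_04_P004042, the parthenote pools of IMPACT read 37.0, 59.6, 33.8 and 46.0 intensity units on arrays 1 to 4, and the fertilised pools 224, 207, 204 and 190. The groups did not overlap, the fertilised pools were close together and the parthenote pools differed more among themselves, with array 2 highest. The log2 ratio was -2.26 ± 0.40 (SD, n = 4), a level 4.79-fold lower in parthenotes, and limma gave an adjusted p of 0.0131. The neighbouring probe gave a log2 ratio of -2.13 ± 0.39 (SD, n = 4) with an adjusted p of 0.0137. It read 20.8, 38.8, 27.2 and 26.2 in parthenotes against 133, 131, 118 and 102 in fertilised pools, again with array 2 highest and no overlap.

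The IMPACT probe furthest along the transcript had the lowest ratio of all 17 probes, -3.50 ± 0.57 (SD, n = 4; adjusted p = 0.0120 in limma), or 11.3-fold. Its parthenote pools read 15.5, 30.3, 28.7 and 19.4 and its fertilised pools 298, 264, 230 and 239. On array 1 the parthenote signal was not well above background, so only 3 of the 4 parthenote values are measured levels. On every array its ratio was below those of the other IMPACT probes, for example -4.27 against -2.60 and -2.67 on array 1. IMPACT was well above background in every parthenote pool on 2 of its 3 probes.

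NNAT encodes neuronatin, a proteolipid that in other species acts on the calcium pump of the endoplasmic reticulum. Its only probe, A_04_P058332, is printed because the gene's whole result rests on it. It covers bases 116 to 175 of a predicted transcript variant.
A_04_P058332: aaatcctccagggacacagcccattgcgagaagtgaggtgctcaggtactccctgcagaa
The array files give chr4:2713887-2714175 on the minus strand, a span of 289 positions, so these 60 bases are also split in the genome.

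In fertilised pools NNAT read 67.6, 63.1, 70.7 and 63.1, well above background on all 4 arrays. In parthenote pools it read 4.91, 11.5, 5.28 and 7.18, not well above background on any. The groups were far apart and the fertilised pools nearly equal. Since the parthenote side has only a bound, NNAT was at least 1.96-fold lower in parthenotes. This sets the mean of the fertilised pools against the mean of a reference in the parthenote channel. On each array that reference was the probe's own parthenote signal or the lowest parthenote signal called well above background, whichever was higher. All were taken as log2 intensities after normexp, loess and Aquantile. The deposited log2 ratio that entered the test was -3.28 ± 0.62 (SD, n = 4), with an adjusted p of 0.0143 in limma.

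On their brightest probes IMPACT and NNAT lost their calls when array 3 or array 4 was left out, when the calls over all probes went from 8996 to 2636 and to 1239. Without array 4 the log2 ratios were -2.33 for IMPACT and -3.33 for NNAT, with adjusted p of 0.0746 and 0.0827 in limma. Without array 3 they were -2.15 and -3.12, with adjusted p of 0.0583 and 0.0637. Without array 2 the brightest IMPACT probe was still called (adjusted p = 0.0477 in limma), and A_04_P000906 and A_04_P004041 were not (0.0583 and 0.0559). With normexp and loess in place of the deposited ratio both were called, at the smaller sizes of -1.37 for IMPACT and -0.98 for NNAT.

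PEG3, a zinc finger protein tied to cell death and to maternal behaviour in mice, was tested through the probe A_04_P086887, to which the array files give no position. Its fertilised pools read 11.1, 12.4, 12.4 and 11.9, near the lowest signals called well above background in that channel (10.5 to 13.2 on the arrays), and none of them was itself so called. Its parthenote pools read 4.09, 3.77, 3.66 and 3.25, and on all 4 arrays these were surrogates that the software put in place of a signal too dim to use. The deposited log2 ratio was -1.70 ± 0.18 (SD, n = 4), and an adjusted p of 0.00731 in limma. Its groups did not overlap. No fold is given, as neither group was well above background. With normexp and median centring the call was lost, at -0.03 with an adjusted p of 0.578.

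MEST, also known as PEG1, is abundant in mesoderm of other species. Its 5 probes are the same stretch of a predicted transcript moved by up to 10 bases, and the outermost pair shows this, with the 50 bases that all 5 probes share in capitals.
A_04_P045406: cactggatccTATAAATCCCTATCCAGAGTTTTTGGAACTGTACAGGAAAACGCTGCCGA
A_04_P045402: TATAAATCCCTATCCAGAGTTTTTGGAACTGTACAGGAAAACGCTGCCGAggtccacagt
The array files place them on the minus strand, at chr7:14136402-14137247 and chr7:14136392-14137237. Each span holds 846 positions for 60 bases.

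MEST was called on 0 of its 5 probes, and its log2 ratios ran from -1.07 to -0.45. Parthenote signals were surrogates on all 4 arrays for 4 probes and on 3 arrays for A_04_P045406. In fertilised pools, a signal was well above background on 1 array each for A_04_P045402 and A_04_P045406 and on none for the other 3. The brightest probe, A_04_P045406, had a log2 ratio of -0.45 ± 0.43 (SD, n = 4; adjusted p = 0.222 in limma). It was -0.44 without array 2 and -0.26 without array 4.

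On array 2 A_04_P045406 read 24.4 in the parthenote pool and 34.4 in the fertilised pool, against 2.88 to 3.73 and 3.66 to 5.86 on the other arrays. The probe A_04_P045405, which differs from it by a shift of 1 base, read 3.82 and 4.41 there. That overlapping probe thus had no high pair of values on array 2. Averaged over the 5 probes, the log2 ratios of MEST on arrays 1 to 4 were -0.27, -0.88, -1.12 and -0.67, a mean of -0.73 with an adjusted p of 0.0455 in limma. With normexp and median centring all 5 probes turned above 0, and the brightest was at 0.27 with an adjusted p of 0.00686 in limma. No fold is given for MEST and its direction was not settled.

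SGCE encodes epsilon-sarcoglycan, a member of the dystrophin-associated complex that is mutated in myoclonus-dystonia in humans. Its probe A_04_P099937 lies at chr10:34343969-34344028 on the plus strand. The fertilised pools read 34.4, 24.3, 36.3 and 24.7, well above background on all 4 arrays, and the parthenote pools 10.4, 9.11, 30.6 and 13.4, well above background on array 3 only. That pool lay among the fertilised pools, so the groups overlapped, although the parthenote pool was the lower on each array. The log2 ratio was -1.07 ± 0.65 (SD, n = 4) with an adjusted p of 0.0980 in limma, so no difference was called. It was called when only bright probes were tested, at an adjusted p of 0.0229, a filter it passed through the fertilised channel. With normexp the log2 ratio was nearer to 0, at -0.28 after loess and -0.17 after median centring (adjusted p = 0.0204 and 0.0358 in limma).

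RTL1, which comes from a Ty3-type retrotransposon and is needed for the capillaries of the placenta in mice, was tested through the probe A_04_P040462, which has no position in the array files. The fertilised pools read 22.4, 18.2, 117 and 13.4 and the parthenote pools 17.3, 14.9, 106 and 10.4. Array 3 was several times brighter than the others in both channels, and the groups overlapped with and without it. On each array the parthenote pool was slightly lower, at log2 ratios of -0.37, -0.30, -0.14 and -0.37. The mean of -0.29 ± 0.11 (SD, n = 4) had an adjusted p of 0.0392 in limma and corresponds to 1.23-fold. All fertilised pools and, of the parthenote pools, only that of array 3 were well above background. The call rested on the pairing within arrays, since with the 8 channels taken as separate samples the adjusted p was 0.839. It was also lost without array 1, 2 or 4, with adjusted p between 0.111 and 0.149, and with either normexp setting.

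SFMBT2 carries MBT domains and joins polycomb complexes. As for MEST, its 5 probes are a single stretch moved by up to 5 bases, and the outermost pair is shown with the 55 bases common to all 5 in capitals.
A_04_P077771: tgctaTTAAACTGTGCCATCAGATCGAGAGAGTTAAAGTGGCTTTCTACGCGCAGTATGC
A_04_P077767: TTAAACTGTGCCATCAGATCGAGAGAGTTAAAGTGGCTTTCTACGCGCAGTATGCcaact
They lie on the minus strand, at chr16:11492854-11492913 and chr16:11492850-11492908 in the array files.

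All 5 probes of SFMBT2 were well above background in either channel on all arrays. The brightest, A_04_P077767, read 38.6, 52.5, 34.7 and 46.9 in parthenotes and 55.6, 61.2, 61.5 and 57.2 in fertilised pools. The groups did not overlap but came close. The log2 ratio was -0.47 ± 0.27 (SD, n = 4) with an adjusted p of 0.0920 in limma, so it was not called.

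The other 4 probes gave log2 ratios of -0.72 to -0.55. Of these, A_04_P077770 was called, at -0.55 ± 0.13 (SD, n = 4; adjusted p = 0.0190 in limma), or 1.47-fold lower. That call was lost without array 1, 2 or 4, with adjusted p of 0.0540, 0.0819 and 0.0962. Averaged over the 5 probes, the ratios on arrays 1 to 4 were -0.61, -0.29, -1.05 and -0.41, lowest on array 3 and nearest to 0 on array 2. SFMBT2 was called on its brightest probe when only bright probes were tested, at an adjusted p of 0.0258.

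**Figure D2:**
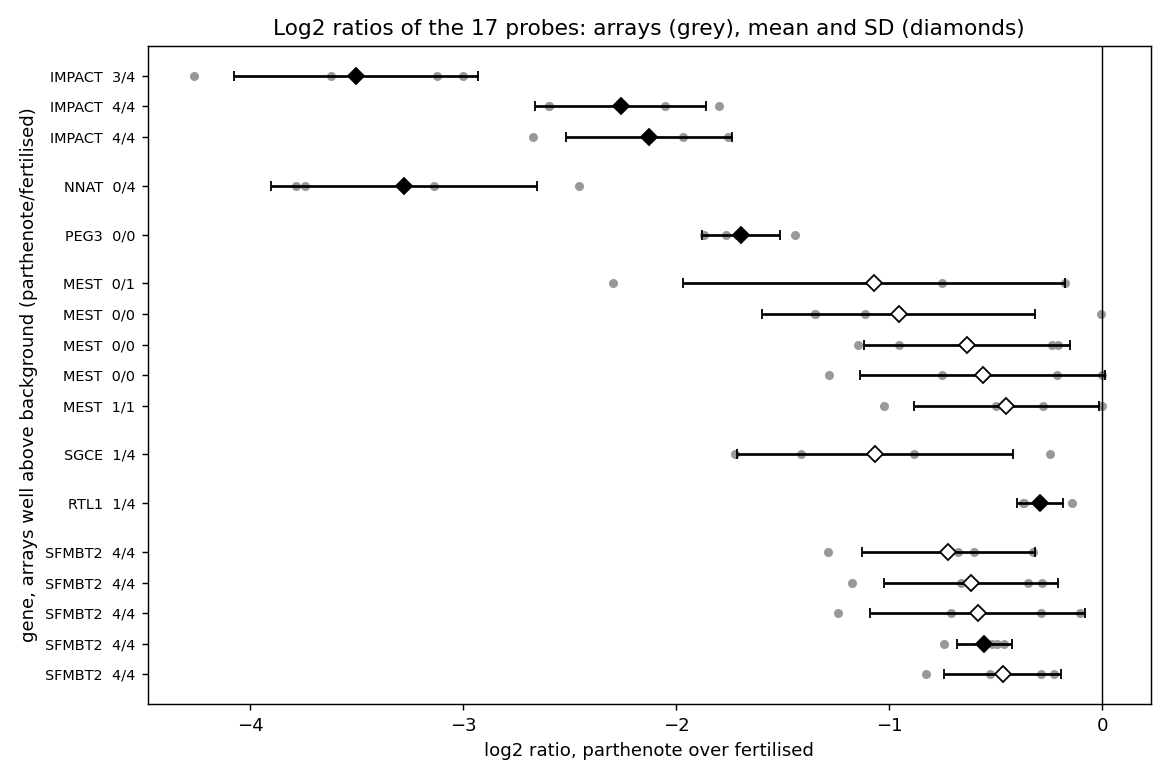
Log2 ratio of parthenote over fertilised for the 17 probes, with the 4 arrays as grey points, their mean as a diamond and the SD as a bar. Filled diamonds had an adjusted p under 0.05 in limma, and the labels give on how many arrays each channel was well above background. All 17 means lie below 0, and 7 diamonds are filled.

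NNAT, PEG3 and MEST have no settled place in an order of the 7 genes, because their parthenote values were not well above background on any array (NNAT and PEG3) or were surrogates on 3 of 4 (MEST). By the brightest probe the other 4 ran from IMPACT through SGCE and SFMBT2 to RTL1, from the lowest ratio upwards, where SGCE and RTL1 had 1 of 4 parthenote pools well above background. Among the 10355 genes, 0.599% had a ratio as low as that of IMPACT, 2.35% as low as SGCE, 10.6% as low as SFMBT2 and 19.5% as low as RTL1. SFMBT2 and RTL1 were thus placed among many other genes.

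**Figure D3:**
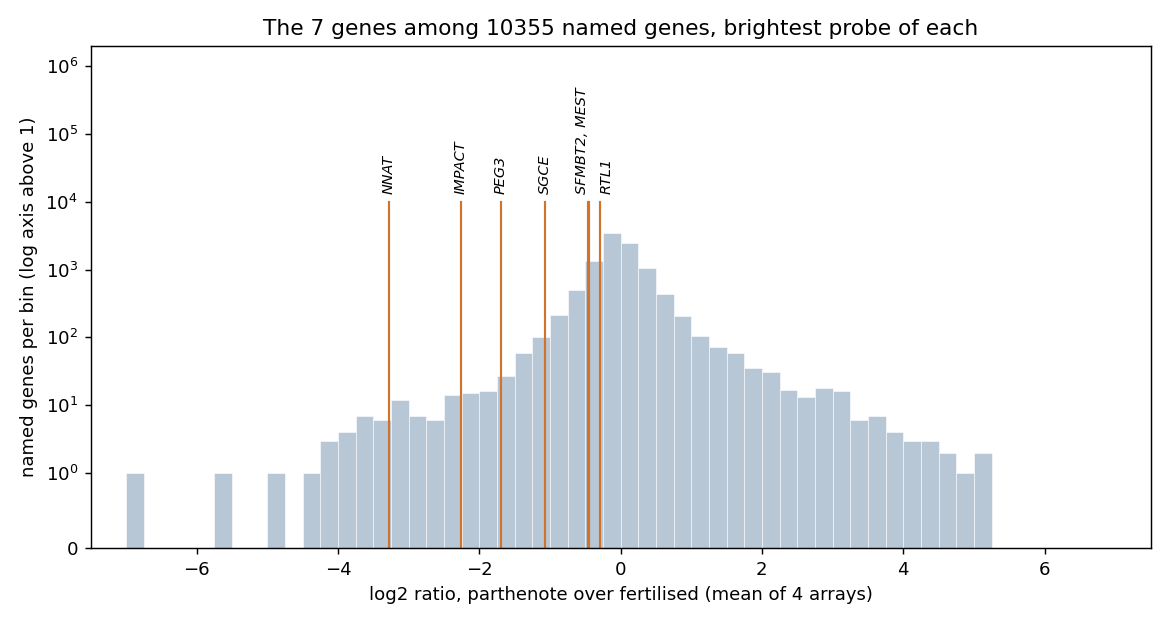
Number of named genes (log axis above 1) by log2 ratio of parthenote over fertilised, for the brightest probe of each of 10355 genes. Orange lines mark the 7 genes by their deposited ratios. For all but IMPACT and SFMBT2, these hold parthenote signals that were not well above background on 3 or 4 of the arrays. IMPACT (-2.26) stands in the lower tail, and SFMBT2 (-0.47) and RTL1 (-0.29) stand in the body of the distribution.

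The base composition of the probes, which the choice of genes did not use, ranged from 35.0% to 55.0% G and C. NNAT and RTL1 had the highest share, 55.0% each, and had nearly the lowest and the highest of the 17 deposited mean ratios.

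The genes most like each of the 7 over the 8 channels were sought among named genes with signal, by the correlation of log2 intensity. The 8 channels share arrays and groups, so a gene that is lower in all parthenote pools will look like another that is. IMPACT was nearest to NNAT (Pearson r = 0.998) and then to GPX7 (0.994), and NNAT was nearest to IMPACT and then to AFP (0.994), alpha-fetoprotein of endoderm. NNAT and AFP were not well above background in any parthenote pool, so their likeness to other genes rests there on dim values. SGCE was nearest to CEP57 (0.966) and CCDC160 (0.965), RTL1 to ZNF112 and TRIM39 (0.994 each), and SFMBT2 to OXCT1 (0.981) and GPATCH3 (0.977). These are descriptions over 8 channels and 7603 genes.

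Of 23 other genes known as paternally expressed in other mammals, 9 had a named probe. Lower in parthenotes were 4 of them, against 12.3% of all genes, and 0 were higher. SNRPN and SNURF, from the Prader-Willi region, had log2 ratios of -6.93 ± 0.89 and -5.51 ± 0.24 (SD, n = 4), and NDN of the same region -1.44 ± 0.06, with adjusted p of 0.00886, 0.00361 and 0.00361 in limma. As SNRPN, SNURF and NDN share a region, the 4 calls are not counts of independent loci. SNRPN was well above background in 3 of 4 parthenote pools. ZDBF2 was not well above background in any parthenote pool and was at least 1.51-fold lower (adjusted p = 0.00246 in limma). The values of MKRN3 (-1.38 ± 0.97), GAB1 (-0.53 ± 0.29) and JADE1 (-0.21 ± 0.15) did not pass, and PEG10 and ZIM3 were not well above background in any channel. The median of the 9 was -1.38, against 0 over all genes.

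The neighbours that the 7 genes have in other mammals were listed to see the surroundings. Of 43 listed, 23 had a probe, of which 3 were lower, 1 was higher and 19 were not called, with a median of 0, beside 12.3% lower and 11.6% higher over all genes. Next to SGCE, CASD1 had a log2 ratio of 0.04 ± 0.21 (SD, n = 4; adjusted p = 0.868 in limma) at a distance of 39.1 kb between the probes, and PEG10, at 66.0 kb, was not well above background. PON3, a paraoxonase 539 kb from SGCE, was lower at -1.61 ± 0.54 (adjusted p = 0.0331 in limma). OSBPL1A, 265 kb from the IMPACT probe, was at -0.28 ± 0.08 (adjusted p = 0.0241), KIN, 625 kb from SFMBT2, at -0.16 ± 0.05 (adjusted p = 0.0297), and CTNNBL1, 212.5 kb from NNAT, at 0.13 ± 0.03 (adjusted p = 0.0224), which turned to -0.50 under normexp with median centring. Distances are between probe centres on the build of the array files. CEP41, 117 kb from MEST, was at -0.06 ± 0.29 (adjusted p = 0.880). BLCAP, COPG2 and DLK1, the nearest known partners of NNAT, MEST and RTL1, had no probe under their names and were not analysed here.

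**Figure D4:**
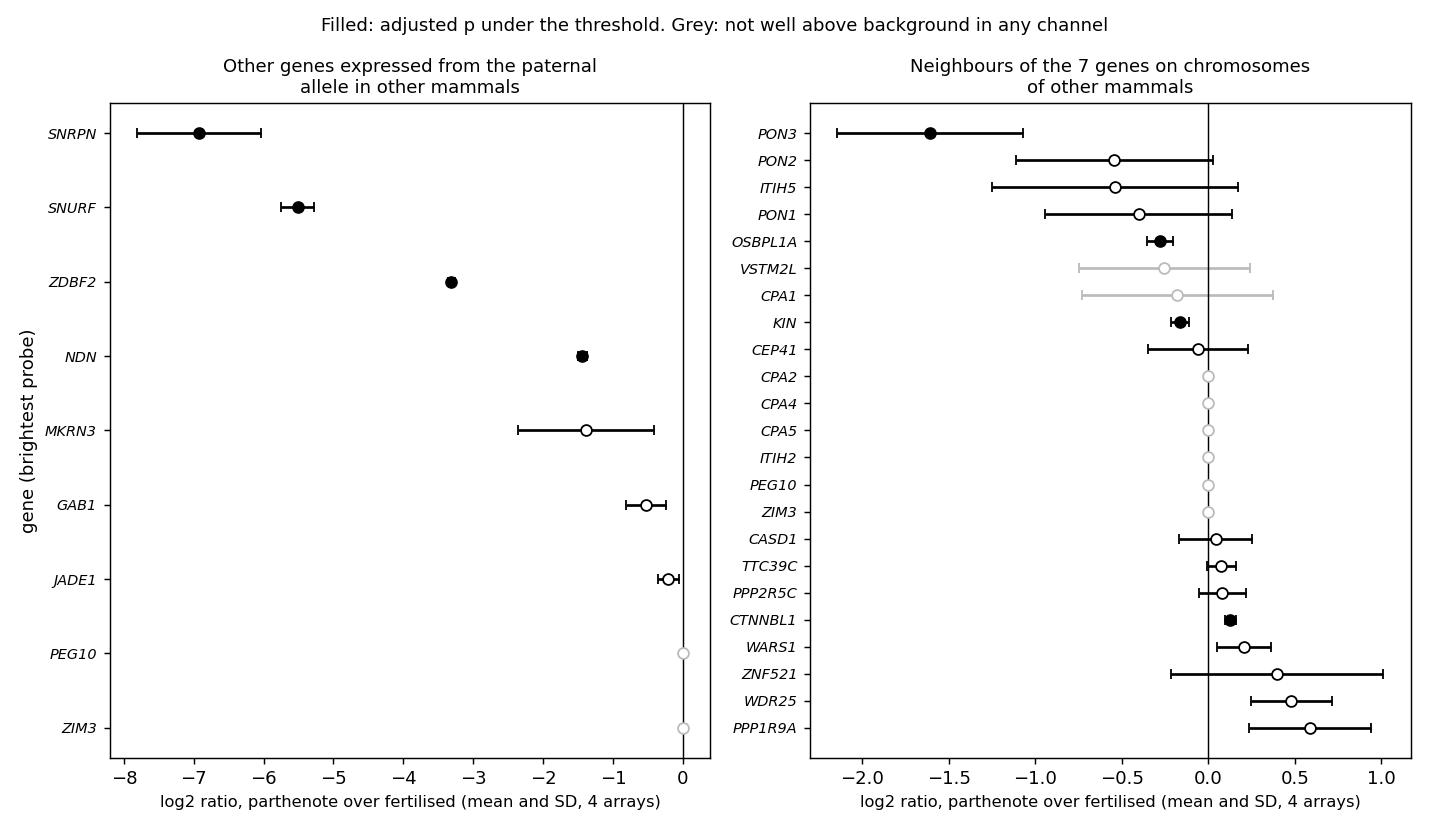
Log2 ratio of parthenote over fertilised (mean and SD of 4 arrays, brightest probe) of the other paternally expressed genes (left) and of the neighbours of the 7 genes (right). Filled symbols had an adjusted p under 0.05 in limma and grey symbols had no signal well above background. SNRPN, SNURF, ZDBF2 and NDN are filled on the left, and PON3 (-1.61) is the lowest on the right.

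IMPACT competes with GCN2 for binding to GCN1, the activator of GCN2. Of 22 genes of the amino acid response, 16 had a probe. Of these, 2 were lower and 2 were higher, shares near the 12.3% and 11.6% of all genes. CHAC1, a target of ATF4, was lower at -2.33 ± 0.75 (SD, n = 4; adjusted p = 0.0311 in limma), with 2 of 4 parthenote pools well above background, and the initiation factor subunit EIF2S3 at -0.35 ± 0.13 (adjusted p = 0.0385). The serine synthesis enzymes PSAT1 and PHGDH, also targets of ATF4, were higher, at 1.48 ± 0.53 (adjusted p = 0.0370) and 1.08 ± 0.27 (adjusted p = 0.0212). EIF2AK4, which encodes GCN2 itself, was at -0.07 ± 0.16 (adjusted p = 0.574). The median of the 16 was -0.0041.

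Around NNAT, 12 of 13 genes of the calcium store had a probe. The store protein CALR and the pump ATP2A3 were lower, each at -0.41 (SD 0.09 and 0.12, n = 4; adjusted p = 0.0161 and 0.0254 in limma), and the release channel ITPR3 was higher at 1.21 ± 0.46 (adjusted p = 0.0413). ATP2A2, the pump of most tissues, was at -0.21 ± 0.10 (adjusted p = 0.0596). The median was -0.18, and the counts of these and the following lists are read beside the same shares of all genes.

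Of the dystrophin-associated complex, 12 of 15 genes had a probe. SGCD, another sarcoglycan, was lower at -2.08 ± 0.80 (SD, n = 4; adjusted p = 0.0424 in limma), with 1 of 4 parthenote pools well above background, and UTRN and SNTB1 were higher at 0.77 ± 0.21 (adjusted p = 0.0248) and 1.08 ± 0.40 (adjusted p = 0.0392). The median was 0.07. The other 9 genes were not called.

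Of the polycomb proteins, 13 of 25 had a probe. CBX2 was lower at -1.01 ± 0.39 (SD, n = 4; adjusted p = 0.0435 in limma) and PHC3 at -0.33 ± 0.14 (adjusted p = 0.0494), and SCMH1 was higher at 0.22 ± 0.09 (adjusted p = 0.0494), though at 0.00 under normexp with median centring. SFMBT1, the closest relative of SFMBT2, was at -0.22 ± 0.12 (adjusted p = 0.0835), and the methyltransferase EZH2 at -0.35 ± 0.15 (adjusted p = 0.0519). The median was -0.19.

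Among 5 measured relatives of RTL1 none was called in limma, and RTL10 alone had signal, at -0.29 ± 0.14 (SD, n = 4; adjusted p = 0.0604). Among 4 genes near PEG3 in the death pathway, BECN1, an autophagy protein, was higher at 0.51 ± 0.11 (adjusted p = 0.0182). Among 16 relatives of MEST, 3 were lower, ABHD14B, ABHD6 and ABHD2 (-0.69 to -0.16), and 4 were higher, with EPHX1, a microsomal epoxide hydrolase, at 1.15 ± 0.15 (adjusted p = 0.00905), and ABHD11, EPHX2 and ABHD17B at 0.49 to 0.44. Under normexp with median centring, where 86.7% of all probes were called, BECN1 turned to -0.18, ABHD11 to -0.17, ABHD17B to -0.12, EPHX2 to -0.03 and ABHD14B to 0.01.

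Of 14 genes that keep or write imprints, 6 had a probe. SETDB1, a histone methyltransferase recruited by TRIM28, was lower at -0.56 ± 0.17 (SD, n = 4; adjusted p = 0.0297 in limma), CTCF at -0.25 ± 0.06 (adjusted p = 0.0184) and the DNA methyltransferase DNMT3B at -0.25 ± 0.08 (adjusted p = 0.0338). TRIM28 itself was at -0.08 ± 0.18 (adjusted p = 0.562) and ZNF445, a zinc finger protein that keeps imprints, at -0.10 ± 0.15 (adjusted p = 0.409). The median of the 6 was -0.17.

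**Figure D5:**
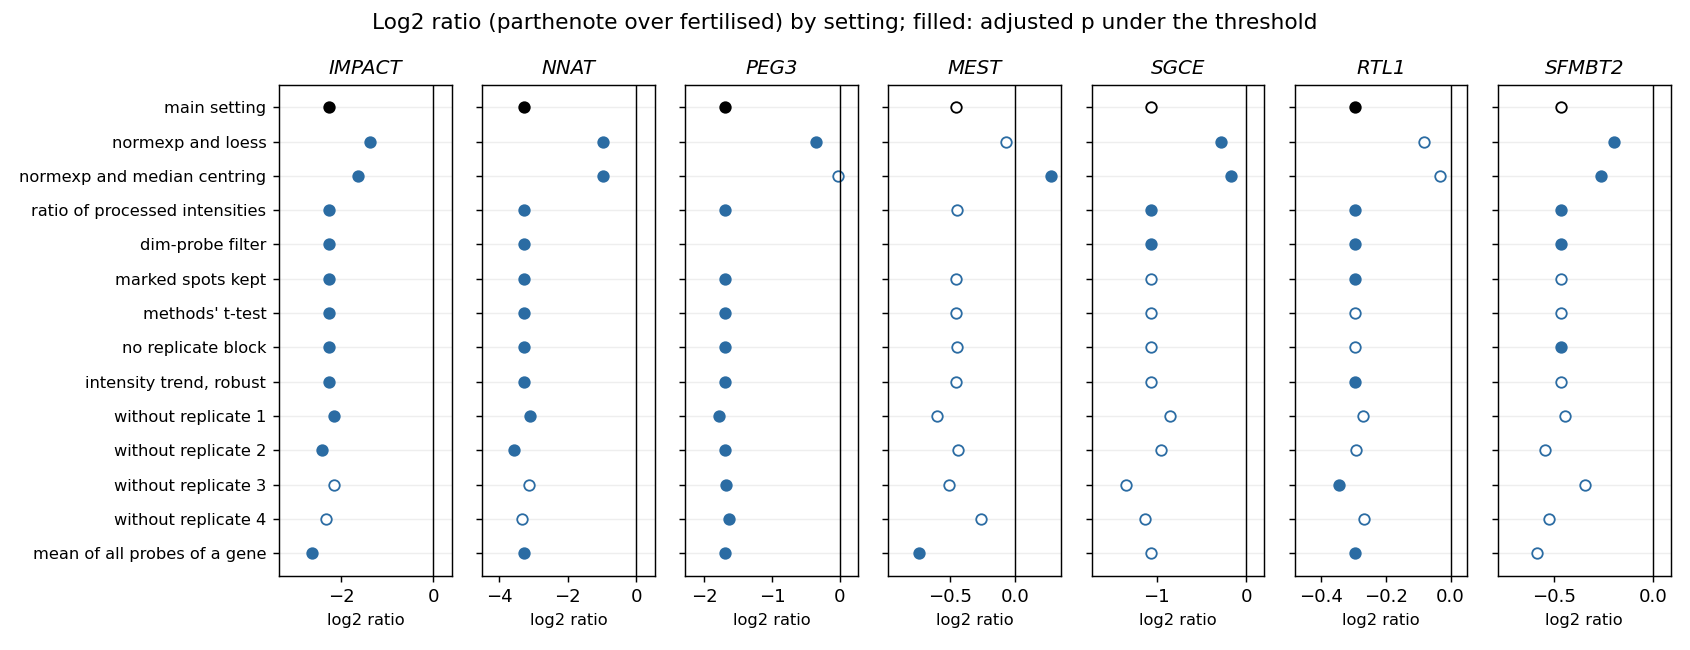
Log2 ratio of parthenote over fertilised for the 7 genes under each processing setting, with the reported setting in black. Filled symbols had an adjusted p under 0.05, and each panel has its own axis. IMPACT and NNAT stay below 0 and turn open only without replicate 3 or 4 on these brightest probes, PEG3 moves to -0.03 under normexp and median centring, and MEST turns to 0.27 there.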

How the data were processed

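Day 6 blastocyst RNA from 4 parthenote (Cy3) and 4 fertilised (Cy5) pools was read on 4 arrays with 60-base probes. The authors extracted the spots with Agilent Feature Extraction 10.10.1.1 under default parameters. The deposited log10 ratio of a spot is Cy5 over Cy3 of the processed intensities, which the software subtracted for background and dye-normalized, with a surrogate in place of a dim value. The ratio is 0 for 9134 to 9702 spots of an array, namely all with a surrogate in both channels and 373 to 550 with one in a single channel. The deposited mean and local background intensities are not normalized, and other deposited columns are flags. The authors' value table of the series repeats this log10 ratio with its sign changed, which makes it parthenote over fertilised. Its columns differed from the turned ratio by at most 5e-06 and have a median of 0 on each array. The authors then dropped outlier spots and ran a t-test, adjusted after Benjamini and Hochberg.

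Here the ratios were turned to log2 of parthenote over fertilised. Spots carrying a flag for uneven signal or for an outlying replicate were treated as missing, and repeat spots of a probe were averaged. The mean ratio was tested against 0, two-sided, by lmFit and eBayes of limma 3.58.1 (R 4.3.3), for probes measured on 3 arrays or more, and p was adjusted by Benjamini-Hochberg over all 43595 probes with a threshold of 0.05. Each ratio pairs a parthenote with a fertilised pool of its array. As a check, the deviations of the channels of 1 array from their group means correlated by 0.38 to 0.47, and those of different arrays by -0.18 to -0.11. The means were taken over the same 4 arrays, which pushes the values between arrays below 0. Only the values within an array therefore bear on the pairing. The pools are described as independent, and p-values measure the spread between pools. Where a channel held surrogates, as PEG3 did in all 4 parthenote pools, its values are floors and do not measure that spread. The brightest probe stood for a gene. Bounds used normexp with an offset of 50 (local backgrounds above the 99.9th percentile, 309 of them, were set to it), loess and Aquantile, and are open to dye bias.

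Symbols came from the RefSeq table of the assembly mOryCun1.1, used for names only, or from the array's descriptions, for 23331 of 43603 probes. Named were all probes of the 7 genes, the called genes of each list with the largest change (up to 3 in each direction), the relatives in a list's title, and BLCAP, PEG10, CASD1, COPG2 and DLK1. The 7 genes and the lists were chosen with earlier results of these data known. The fit was also run on simulated ratios with planted changes. These were independent normal values with no surrogates and no dye effect, so they do not bear on those limits. Figures were drawn with matplotlib 3.10.9 in Python 3.11.15.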

Additional observations from a re-analysis of the deposited data

Results flagged for a closer look

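A single array stood apart from the other 3 in 2 of 51 values checked for the 17 probes, which is close to the number that chance flags (about 1 in 20 groups). The log2 intensity of the MEST probe A_04_P045403 in the fertilised pool of array 1 was 1.944, against 3.02 to 3.20 on the other arrays. The log2 intensity of the MEST probe A_04_P045406 in the parthenote pool of array 2 was 4.606, against 1.524 to 1.90 on the others, where it was a surrogate. The probe that overlaps it but for 1 base had a surrogate in that pool too. The causes were not tested.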

How the results depend on the processing

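The count of the 7 genes called lower, 4 in the reported setting, was 1 to 3 with a replicate left out, with 1 without replicate 4 and 2 without replicate 3. The probes of these genes called lower, 7 in the reported setting, numbered 12 with normexp and loess, 12 with the ratio of processed intensities, and 1 to 6 with a replicate left out (1 without replicate 4). The share of all probes called lower moved in the same direction. It was 11.1% in the reported setting, 15.3% with normexp and loess, and 17.2% with the ratio of processed intensities. With a replicate left out it was 1.63% to 7.07% (1.63% without replicate 4). All probes called, 8996 in the reported setting, numbered 37800 with normexp and median centring, 21399 with the ratio of processed intensities (of which 65% were higher), 4435 with the methods' t-test, 16358 with no replicate block (of which 68% were higher), and 1239 to 5736 with a replicate left out. MEST reversed to 0.2677 under normexp and median centring. Of 89 values of single genes under the alternatives, 66 kept their side of the threshold and their direction, 12 kept the direction and lost the call, 10 kept it and gained the call, and 1 reversed. Without the pairing of channels, IMPACT, NNAT and PEG3 were still called, RTL1 was not (adjusted p = 0.839 in limma) and SFMBT2 was (0.0315). Of 47 called genes of the lists, 47 kept their direction with normexp and loess and 38 with normexp and median centring. PEG3 and MEST have no value under the filter on dim probes. The methods' t-test called 3 of the 7 genes, IMPACT, NNAT and PEG3. Why the settings differ was not tested. Probes with surrogates in a channel carry a floor and not a level, which limits PEG3 and MEST most.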

Other observations

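Markers of the blastocyst lineages and of other cells were read beside the 7 genes. Of 4 measured primitive endoderm genes, AFP was called, at least 1.23-fold lower in parthenotes (adjusted p = 0.0204 in limma), with no parthenote pool well above background. Of 6 trophectoderm genes, GATA2 was lower at a log2 ratio of -0.64 ± 0.26 (SD, n = 4; adjusted p = 0.0451) and KRT8 was higher at 0.58 ± 0.22 (adjusted p = 0.0408). Of 3 epiblast genes, POU5F1 was higher at 0.21 ± 0.03 (adjusted p = 0.0118). Under normexp with median centring KRT8 turned to -0.24 and POU5F1 to -0.55. Both erythroid genes measured, HBA and ALAS2, were higher, at 1.64 ± 0.69 (adjusted p = 0.0494) and 1.94 ± 0.46 (adjusted p = 0.0196). Of 6 leukocyte genes, CD14 was higher at 0.92 ± 0.15 (adjusted p = 0.0122), and of 8 genes of stroma and smooth muscle none was called in limma.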
